A study of Mus musculus with 98 samples.

Results

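Cortical and medullary thymic epithelial cells (cTEC and mTEC) of 4-week-old mice were compared in 12 bulk RNA-seq libraries of the 98 samples of the series, 6 labelled cTEC and 6 labelled mTEC-all. The libraries were chosen by these labels alone, with no measured value. The study profiled the thymic stroma of the mouse over development, mostly its nonepithelial part, and sorted the epithelial populations alongside it. All 12 libraries came from wild-type mice at 4 weeks of age, from live CD45- cells of the digested thymus, and neither population carried a transgene or a treatment. The study stated a sorting panel that holds EpCAM, Ly51, UEA-1, MHCII and CD80. The sort it draws for 4-week-old mice divides the nonepithelial cells, and gates that separate cTEC from mTEC were not found in the sources used here, so genes that encode these antigens (*Epcam*, *Enpep*, the class II chains and *Cd80*) may have served to choose the cells. The titles carry the prefix DFCK or TXCK, of unstated meaning, in 3 libraries of each population. No source states that each library came from a separate mouse, so the p-values below measure only the spread between these libraries. The 6 libraries each of mTEChi and mTEClo at 4 weeks, and of cTEC and mTEC at birth (P0), all wild-type as well, serve as points of reference.

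The thymus makes T cells from blood-borne progenitors in an epithelial meshwork. In the cortex, cTEC draw in progenitors with chemokines, commit them to the T lineage through the Notch ligand DLL4, and display peptides cut by proteases that few other cells use, on which thymocytes are positively selected. In the medulla, mTEC transcribe genes of many peripheral tissues, under AIRE and FEZF2 among others, and so expose developing T cells to self antigens before export. Some mTEC take on programmes of other epithelial or nonepithelial lineages, such as tuft, keratinocyte, microfold, neuroendocrine, ciliated and muscle cells. Both branches depend on the transcription factor FOXN1.

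Levels are given as CPM (counts of a gene per 1000000 gene counts of its library), which do not correct for gene length and so are compared between libraries, not between genes. Fold changes are on the log2 scale, cTEC over mTEC, with their standard error. A gene was called higher in one population when the adjusted p of edgeR's quasi-likelihood test was under 0.05. Libraries labelled cTEC held 10941093 to 12943745 gene counts, and those labelled mTEC held 5785352 to 13355031, the lowest in mTEC replicate 3. That library also held the fewest genes and was the sole mTEC library at 0 for *Cd80* and *Cd86*. Within cTEC, replicate 1 had the lowest summed level of 17 thymocyte markers, 766 CPM against 2413 to 3685 CPM in the other 5, and replicate 6 the highest of 8 endothelial markers (160.9 against 19.9 to 50.5 CPM). Reads in no gene made up 10.2 to 12.2% in cTEC and 12.9 to 14.5% in mTEC, without overlap, and the part of this difference in the results was not tested. Where leaving out 1 of these 3 libraries moved the count of a list below by over 1.5 times, the count without it is given. For some lists it is given where the count moved less. These libraries were singled out by values in these same data, so counts without them are descriptions and no support for a list.

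The labels were checked against markers. *Enpep* encodes Ly51, which marks cTEC among epithelial cells, and was read as a check of the sort, with 110.4 to 177 CPM (median 142) in cTEC and 0.519 to 29.5 CPM (median 2.31) in mTEC. All 6 genes of an epithelial check list were above 0 in every library, and 4 were higher in cTEC, 1 in mTEC and 1 was not called, against 9.38% and 15.8% of all genes. *Epcam*, the pan-epithelial adhesion molecule, had 231 to 336 CPM (median 271) in cTEC and 368 to 699 CPM (median 627) in mTEC, with every mTEC library above every cTEC library (log2 fold change -1.21 ± 0.17, adjusted p = 0.000183). The lowest mTEC value was that of replicate 3. *Cdh1*, the epithelial cadherin, did not pass the test (175.2 to 269 CPM and 153 to 298 CPM), although it was called higher in mTEC when mTEC replicate 3 was left out (log2 fold change -0.41, adjusted p = 0.0267).

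Of 14153 genes tested, 3564 (25.2%) differed between cTEC and mTEC at 4 weeks, 1327 (9.38%) higher in cTEC and 2237 (15.8%) higher in mTEC. With a fold change over 2 as well, 936 (6.61%) were higher in cTEC and 2019 (14.3%) in mTEC. The median log2 fold change over all tested genes was -0.011. The mTEC side held the larger changes: 1044 called genes were over 16-fold higher in mTEC and 150 over 16-fold higher in cTEC. Of the genes called higher in cTEC, 22 (1.66%) had no count in any mTEC library, and of those called higher in mTEC, 6.93% had none in any cTEC library. A gene nearly absent from one population passes the filter on low counts (10 counts in a library of median depth, in at least 6 libraries) only through the other, where it has to be higher, so counts and medians over the members of a list that were tested describe those members and are no support for the list as a whole. At an unadjusted p under 0.05 the total was 5030. Within the 3 DFCK libraries of each population, 461 were higher in cTEC and 1005 in mTEC, and within the 3 TXCK libraries 977 and 2333. Without mTEC replicate 3, 1784 genes were called higher in cTEC and 2775 higher in mTEC. In bulk RNA, fewer cells of a kind and less RNA per cell cannot be told apart, which holds for every difference below.

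**Figure D1:**
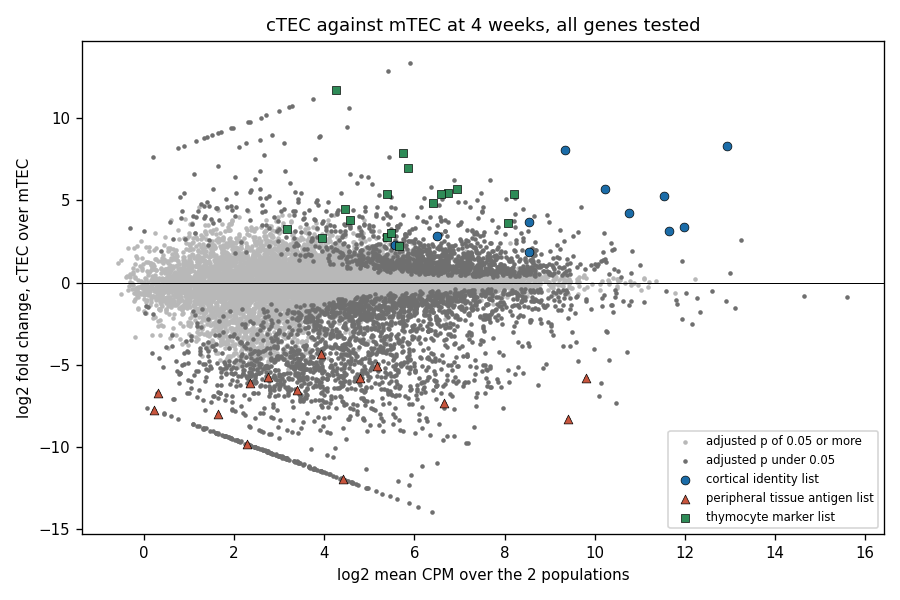
Log2 fold change of cTEC over mTEC against log2 mean CPM for the 14153 genes tested, with genes of 3 lists marked. The 11 cortical genes lie above 0, the 14 peripheral tissue antigens below it, and the thymocyte markers above it.

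Among called genes with a mean of at least 10 CPM in cTEC and no overlap between the groups, the 10 with the largest fold change towards cTEC were *Ednrb*, *Rhoh*, *Rag2*, *Was*, *Dgkeos*, *Trbv12-1*, *Cthrc1*, *Trbv13-1*, *Adamts10* and *Kcnk4*. *Ednrb*, the endothelin receptor type B (chr14:103814625-103844402, GRCm38), had 82.5 to 145 CPM (median 126.6) in cTEC and 0 in all 6 mTEC libraries, at least 2491-fold higher when mTEC are set to a floor of 3 counts over their 6 libraries. At birth it stood at 85.4 to 167.3 CPM in cTEC and 3.20 to 26.4 CPM in mTEC, so that the cTEC ranges of the 2 ages overlapped and those of mTEC did not. *Kcnk4*, a potassium channel, had 7.19 to 14.0 CPM in cTEC and was at least 249-fold higher. *Adamts10*, a secreted metalloprotease, had 4.87 to 31.5 CPM and was at least 272-fold higher. *Cthrc1*, a secreted protein with a collagen-like repeat, had 12.6 to 77.6 CPM (median 50.3) in cTEC and at most 0.112 CPM in mTEC (log2 fold change 10.63 ± 0.84, adjusted p = 1.69e-06). *Dgkeos* lies antisense to *Dgke*, and as the counting is not stated to use strand, its 13.4 to 28.04 CPM in cTEC cannot be told apart from reads of its partner.

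The other 5 of these 10 genes are known from T cells or other blood cells. *Rag2*, a subunit of the recombinase that assembles antigen receptors, had 16.4 to 51.8 CPM (median 39.1) in cTEC and 0 in all mTEC libraries (at least 792-fold higher). *Rhoh*, a GTPase of blood cells, had 21.1 to 145 CPM (median 92.8) and *Was*, an actin regulator of blood cells, 5.13 to 52.0 CPM (median 25.7) in cTEC, again with 0 in mTEC. The T cell receptor beta segments *Trbv12-1* and *Trbv13-1* had 5.91 to 25.96 CPM and 4.87 to 25.96 CPM. Such segments resemble each other closely, so reads may be split among them. In each of these 5 genes cTEC replicate 1 had the lowest value of the 6, as it had in the summed thymocyte markers.

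Of the 17 thymocyte markers, 14 of which fell under the filter's limit in some mTEC library, 16 were higher in cTEC and none in mTEC (median log2 fold change 4.87, against -0.011 over all genes and 9.38% called higher in cTEC). *Ptprc*, which encodes CD45, the antigen the sort excluded, had 60.9 to 241 CPM (median 171) in cTEC and 0 to 9.85 CPM (median 4.43) in mTEC (log2 fold change 4.87 ± 0.71, adjusted p = 0.000198). *Cd3e*, a T cell receptor subunit, had 30.9 to 154 CPM (median 145) against 0 to 5.17 CPM (median 0) (log2 fold change 6.97 ± 1.34, adjusted p = 0.00159), and *Rag1* 102 to 394 CPM (median 215) against 0 to 15.4 CPM (median 0) (log2 fold change 5.68 ± 1.29, adjusted p = 0.00508). *Ptcra*, the pre-T cell receptor alpha chain, did not pass (adjusted p = 0.0802). No thymocyte marker was higher in mTEC by edgeR, at an unadjusted p under 0.05 or by DESeq2, which called all 17 higher in cTEC. The summed level of the list was 766 to 3685 CPM in cTEC, 74.7 to 184.1 CPM in mTEC, and 51.5 to 121 CPM in cTEC at birth. The thymocyte markers moved with the cTEC label at 4 weeks, and their part in the difference between the populations was not tested. Leaving out cTEC replicate 1 gave 16 of 17 called, and leaving out cTEC replicate 6 gave 14.

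Genes higher in cTEC were sorted by how replicate 1 stood in them, a limit chosen after the values were seen. In 116 of the 936 genes over 2-fold higher in cTEC (12.4%), replicate 1 was below 0.5 times the mean of the other 5, as it was for the summed thymocyte markers (0.258 times), and of these 116, 25 (21.6%) were also over 2-fold higher in cTEC at birth. Of the remaining 820, 530 (64.6%) were. Both counts at birth use the fitted fold change alone, without a call. Over all 14153 genes tested, replicate 1 was below that limit in 19.2%, and the shares over 2-fold higher in cTEC at birth were 7.21% of these and 13.0% of the others, so that the same order held among all genes.

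The 10 largest fold changes towards mTEC were those of *Cd177*, *Gatm*, *Calm4*, *Pdyn*, *Ces1f*, *Il22*, *Cela2a*, *Serpinb9b*, *Oas1e* and *Il1f5*, all at 0 in every cTEC library. *Cd177*, a surface glycoprotein of neutrophils, had 44.4 to 285 CPM (median 172.8) in mTEC, at least 4051-fold higher, and 62.9 ± 20.7 CPM (mean ± SD, n = 6) in mTEChi against 499 ± 155.2 CPM in mTEClo. *Gatm*, an enzyme of creatine synthesis, had 58.6 to 202 CPM (median 148.8) (at least 3315-fold). *Pdyn*, the precursor of dynorphin opioid peptides, had 72.4 to 123 CPM (median 105) (at least 2398-fold), and *Ces1f*, a carboxylesterase, 50.2 to 128 CPM (median 91.9) (at least 2127-fold). *Il22*, a cytokine of lymphoid cells, had 19.6 to 199 CPM (median 59.3) (at least 1893-fold), with 64.2 ± 33.5 CPM in mTEChi and 0 in every mTEClo library. *Cela2a*, a pancreatic elastase, had the widest range of the 10 relative to its lowest library, from 7.14 to 267 CPM, with replicates 2 and 3 above 100 CPM and the other 4 below 15 CPM. *Calm4*, a calmodulin-like protein of skin, had 45.9 to 237 CPM, *Serpinb9b*, a protease inhibitor, 19.5 to 130.5 CPM, *Oas1e*, of the oligoadenylate synthetase family, 29.4 to 97.1 CPM, and *Il1f5*, the interleukin-36 receptor antagonist of skin, 23.9 to 139.05 CPM.

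On the list of cortical identity and selection, 11 of 12 genes passed the filter on low counts and all 11 were higher in cTEC (9.38% of all genes were), with every cTEC library above every mTEC library (10.6% of all genes). Their median log2 fold change was 3.68. *Prss16*, the thymus-specific serine protease that prepares peptides for MHC class II (chr13:22002173-22009742, GRCm38), had 11981 to 20003 CPM (median 14971) in cTEC and 17.6 to 58.5 CPM (median 48.8) in mTEC (log2 fold change 8.29 ± 0.35, adjusted p = 2.86e-08). *Psmb11*, the catalytic subunit of the thymoproteasome (chr14:54621433-54629556), had 896 to 1723 CPM (median 1263) in cTEC. In mTEC it had 0 to 12.7 CPM, with 0 in replicates 2 and 5 (log2 fold change 8.07 ± 1.02, adjusted p = 7.13e-05). Both genes thus differed by over 2 orders of magnitude. *Ctsl*, the lysosomal cathepsin of cTEC, had 2844 to 3814 CPM (median 3312) against 103.2 to 291 CPM (median 148.5) (log2 fold change 4.23 ± 0.23, adjusted p = 1.11e-07). *Ly75*, the endocytic receptor DEC-205, had 538 to 968 CPM (median 619.7) against 14.6 to 84.2 CPM (median 54.97) (log2 fold change 3.68 ± 0.38, adjusted p = 1.48e-05). *Cd83*, which stabilises MHC class II at the surface of cTEC, had 5830.4 ± 2083 CPM in cTEC and 141 ± 42.3 CPM in mTEC (mean ± SD, n = 6 each). *Tbata*, named for thymus, brain and testis, had 5776 ± 1130.2 CPM in cTEC and 608 ± 161.4 CPM in mTEC, and *Tgfbr3*, a TGF-beta co-receptor, 79.5 ± 16.01 and 14.9 ± 7.22 CPM. *Foxn1* had the smallest fold change of the 11, with 384 to 822 CPM (median 594) in cTEC and 69.8 to 225 CPM (median 160.5) in mTEC (log2 fold change 1.86 ± 0.28, adjusted p = 0.000243). *Cfc1* had no count in any of the 12 libraries.

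**Figure D2:**
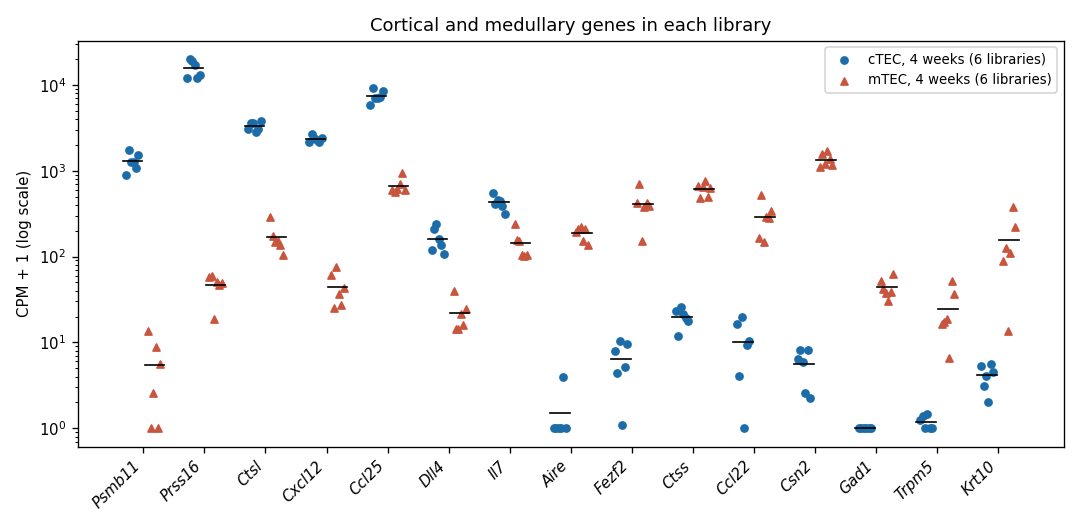
CPM plus 1 on a log axis for 15 cortical and medullary genes, with cTEC libraries as circles, mTEC libraries as triangles and the mean of each group as a bar. For every gene shown the groups do not overlap; *Psmb11* and *Prss16* are far apart and *Il7* is the closest pair.

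The chemokines and cytokines by which the cortex feeds thymocytes included several on the cTEC side. *Cxcl12*, which retains progenitors and double-negative thymocytes, had 2150.1 to 2650.0 CPM (median 2349) in cTEC and 24.4 to 74.8 CPM (median 38.7) in mTEC (log2 fold change 5.67 ± 0.28, adjusted p = 6.38e-08). *Ccl25*, the ligand of CCR9, had 5785 to 9246 CPM (median 7156) against 559 to 930.2 CPM (median 604) (log2 fold change 3.39 ± 0.17, adjusted p = 7.04e-08). *Il7*, the survival cytokine of early thymocytes, was higher in cTEC as well but by less, with 311 to 553 CPM (median 426) against 99.5 to 237 CPM (median 128) (log2 fold change 1.503 ± 0.22, adjusted p = 0.000237). In mTEClo it stood at 338 ± 88.5 CPM and in mTEChi at 85.5 ± 14.8 CPM. *Kitl*, stem cell factor, had 194 to 295 CPM (median 218) against 8.31 to 36.4 CPM (median 16.6) (log2 fold change 3.50 ± 0.33, adjusted p = 7.02e-06). Of 15 listed cytokines and growth factors 14 were found by symbol (*Flt3l* was not) and 12 were tested. Of these 12, 6 were higher in cTEC (*Il7*, *Kitl*, *Il33*, *Bmp4*, *Pdgfa* and *Wnt4*), 3 in mTEC (*Bmp2*, *Tgfb2* and *Il23a*) and 3 were not called, with a median of 0.55, against 9.38% and 15.8% of all genes. *Bmp4*, a morphogen of the thymic primordium, was highest in fold towards cTEC at low levels, 7.74 to 28.9 CPM against 0 to 2.38 CPM. *Il23a*, a subunit of interleukin-23, led towards mTEC, with 1.40 to 9.05 CPM (median 4.15) in cTEC and 164 to 263 CPM (median 203) in mTEC (log2 fold change -5.602 ± 0.42, adjusted p = 1.07e-06). *Tslp*, an epithelial alarmin, was not called (adjusted p = 0.111), and *Csf1*, a myeloid growth factor, had a log2 fold change of -0.0386. *Il15*, a cytokine of natural killer and innate-like T cells, did not pass (adjusted p = 0.0526), with 11.3 to 20.2 CPM in cTEC and 6.89 to 67.9 CPM in mTEC, but was higher in mTEC by DESeq2 and without mTEC replicate 2 or 6. *Il33*, an alarmin, had 133 to 217 CPM (median 178) in cTEC against 0 to 36.1 CPM (median 10.5) in mTEC.

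FOXN1 binds the core motif GACGC, and 4 matches to it, read on both strands, lay in the 250 bases before the RefSeq start sites of 3 genes on the cortical list. They are shown because *Foxn1*, *Psmb11*, *Ccl25* and *Cxcl12* were all higher in cTEC, as were all 11 tested genes of the list, also those without a match. Whether FOXN1 acts through these matches was not tested. The 5 capitals mark the match, which reads GCGTC where the motif lies on the opposite strand, and each line has 10 bases to either side, 5′ to 3′ on the strand of the gene (RefSeq, GRCm38.p6, all on the plus strand). The matches do not overlap each other.
Psmb11 at chr14:54625061-54625085: ctgacaggtgGCGTCttcagagtgt
Psmb11 at chr14:54625238-54625262: cttctccacaGCGTCctcctcctcc
Ccl25 at chr8:4325144-4325168: ttgaagaagcGACGCtcattggttg
Cxcl12 at chr6:117168463-117168487: caggggatgcGCGTCagagacccca
The matches begin 239 and 62 bases before the RefSeq start of *Psmb11*, 56 bases before 1 of the 2 starts of *Ccl25* and 62 bases before that of *Cxcl12*. The span given above for *Psmb11* begins at chr14:54621433, so both of its matches lie inside that span, whose start differs from the RefSeq start used here. Of the 12 genes on the cortical list, 9 had a window in the table, and 3 of these 9 (33.3%) held a match, against 6715 of all 27025 genes (24.8%). Genes with 2 or more matches in a window, as *Psmb11* has, made up 6.70% of all genes. *Ly75*, *Ctsl*, *Tbata*, *Dll4*, *Foxn1* and *Cfc1* held no match, which says only that these letters are not in these windows. Of 10 genes of the mTEC tolerance list with a window, 5 held a match.

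The remaining chemokines stood mostly on the medullary side. Of 14 listed, 12 were tested, 7 were higher in mTEC (15.8% of all genes were), 2 in cTEC (*Ccl25* and *Cxcl12*) and 3 were not called (median -2.82). *Ccl19*, a CCR7 ligand that guides positively selected thymocytes to the medulla, had 3.09 to 20.8 CPM (median 14.1) in cTEC and 199 to 382 CPM (median 252) in mTEC (log2 fold change -4.47 ± 0.41, adjusted p = 5.59e-06). *Ccl21a*, the other CCR7 ligand, did not pass (adjusted p = 0.328) and the groups overlapped, with 681 to 5653 CPM (median 2193) in cTEC and 2152 to 7160.0 CPM (median 4203) in mTEC. In mTEClo it reached 16464 ± 7545 CPM and in mTEChi only 577 ± 71.4 CPM. The mouse genome holds near-identical copies of *Ccl21a*, so its counts are uncertain.  *Cxcl9* led towards mTEC, with 0 to 2.15 CPM against 52.2 to 155.2 CPM (log2 fold change -7.39 ± 0.82, adjusted p = 2.56e-05). *Ccl22*, which draws CCR4+ thymocytes, had 0 to 18.9 CPM against 147 to 525 CPM (log2 fold change -5.10 ± 0.83, adjusted p = 0.000452), and *Ccl20*, the ligand of CCR6, 0 to 8.93 CPM against 146.4 to 366 CPM, with the highest mTEC value in replicate 3.

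Among 15 Notch pathway genes 12 were tested, 3 were higher in cTEC, none in mTEC and 9 were not called (median 0.59), a share of 25% called against 25.2% of all genes. For mTEC the count was 1 at an unadjusted p under 0.05, 1 by DESeq2, 1 without mTEC replicate 2 and 2 without mTEC replicate 3. *Dll4*, the ligand that sets T lineage fate, had 107.4 to 238 CPM (median 147) in cTEC and 13.3 to 39.2 CPM (median 17.7) in mTEC (log2 fold change 2.86 ± 0.32, adjusted p = 3.13e-05). *Hey1*, a Notch target, had 171.6 to 281 CPM (median 265) against 0 to 49.4 CPM (median 14.3) (log2 fold change 3.68 ± 0.81, adjusted p = 0.00394), the largest fold change towards cTEC on the list, and *Hes6* was the third gene called, at 0.58. The call of *Hes6* was lost when any of 8 single libraries was left out (cTEC replicates 1 to 4 and mTEC replicates 1, 2, 4 and 5), with adjusted p from 0.0523 to 0.0890. *Jag1* did not differ by the test (adjusted p = 0.446), and neither did *Jag2* (adjusted p = 0.117), although every cTEC library (42.9 to 90.1 CPM) stood above every mTEC library (0 to 32.2 CPM). *Dll1* was not called by edgeR either, at 2.47, but was by DESeq2 (adjusted p = 0.0237), so that in the fit by population alone *Dll4* was the only one of the 4 ligands tested that edgeR called. With the title prefix as a term edgeR called *Jag2* higher in cTEC as well (log2 fold change 4.12, adjusted p = 0.0406). Within TXCK it called *Jag2* and *Dll1* higher in cTEC (adjusted p = 0.0106 and 0.0218).

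MHC class I molecules carry peptides cut by the proteasome. Of 15 genes of this route, all tested, 6 were higher in cTEC, 4 in mTEC and 5 were not called, with a median of -0.10 (9.38% and 15.8% of all genes were called). *Psmb5*, the constitutive subunit in whose place *Psmb11* is built in, was not called (66.2 to 104 CPM in cTEC, 50.6 to 183 CPM in mTEC, the highest in mTEC replicate 3). *Psmb8*, the immunoproteasome subunit for the same position, was higher in mTEC, with 227 to 305 CPM (median 256) in cTEC and 416 to 1380.2 CPM (median 562) in mTEC (log2 fold change -1.47 ± 0.24, adjusted p = 0.000509). Without mTEC replicate 3, which had the highest value, it remained so (log2 fold change -1.18, adjusted p = 5.96e-05). The other immunoproteasome subunits were higher in cTEC: *Psmb9* had 212 to 308 CPM (median 297) in cTEC and 86.03 to 191.9 CPM (median 103.2) in mTEC (log2 fold change 1.14 ± 0.19, adjusted p = 0.000484), and *Psmb10* 353 to 498 CPM against 209.9 to 476 CPM (log2 fold change 0.56 ± 0.18, adjusted p = 0.0342). The call of *Psmb10* was lost when any of 9 single libraries was left out (cTEC replicates 1, 2, 4 and 6 and mTEC replicates 1, 2, 4, 5 and 6), with adjusted p from 0.0531 to 0.0712. The proteasome activator subunits *Psme1* and *Psme2* were higher in mTEC, with log2 fold changes of -2.31 and -2.001. *B2m*, the light chain of every class I molecule, had 1675 to 3136 CPM (median 2512) in cTEC and 5308 to 10449.5 CPM (median 7723) in mTEC (log2 fold change -1.76 ± 0.18, adjusted p = 1.41e-05). The peptide transporter genes *Tap1* and *Tap2* and *Erap1*, which trims peptides in the endoplasmic reticulum, were higher in cTEC, with log2 fold changes of 0.53, 0.90 and 0.96.

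For MHC class II, 10 of 15 genes, all tested, were higher in mTEC, 2 in cTEC and 3 were not called (median -0.87), against 15.8% and 9.38% of all genes. Within DFCK 6 of the 15 were higher in mTEC. The call of *H2-DMb1* was lost without any 1 of cTEC replicates 1 to 4 and 6 or mTEC replicates 2, 4, 5 and 6. Its adjusted p was then 0.0610 to 0.112. *H2-Aa*, an alpha chain, had 3904 to 6057 CPM (median 4763) in cTEC and 10574 to 19492 CPM (median 11247) in mTEC (log2 fold change -1.52 ± 0.16, adjusted p = 1.48e-05), and mTEC replicate 3 had the highest value. *Ciita*, the master regulator of class II, did not pass (adjusted p = 0.934), with 221 ± 26.1 CPM in cTEC and 210.2 ± 80.1 CPM in mTEC. The cathepsins that cut the invariant chain divided: *Ctss*, cathepsin S of mTEC and dendritic cells, had 10.8 to 24.7 CPM (median 19.4) in cTEC and 477 to 754 CPM (median 641) in mTEC (log2 fold change -5.12 ± 0.23, adjusted p = 2.87e-08), whereas *Ctsl* was higher in cTEC, as given above. *H2-Oa* and *H2-Ob*, which form the H2-O modulator of peptide loading, were higher in mTEC, with log2 fold changes of -2.27 and -2.85. *H2-DMa* was not called (adjusted p = 0.0558), but was higher in cTEC without mTEC replicate 3 (log2 fold change 0.72, adjusted p = 0.00349) or without cTEC replicate 3. The class II list holds *Ctsl* and *Prss16* too, and these were its 2 members higher in cTEC.

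Autophagy feeds cytosolic proteins into class II loading in cTEC. Of 15 genes of autophagy and the lysosome, all tested, 4 were higher in cTEC, 3 in mTEC and 8 were not called (median 0.0273, against -0.011 over all genes), or 26.7% and 20%, against 9.38% and 15.8% of all genes. DESeq2 called 5 higher in mTEC. *Lamp2*, a lysosomal membrane protein, had 2083 to 2412 CPM (median 2233) in cTEC and 404 to 762 CPM (median 486) in mTEC (log2 fold change 2.02 ± 0.14, adjusted p = 7.42e-07). *Sqstm1*, the cargo receptor p62, had 470.3 to 701 CPM (median 637) against 179.4 to 364 CPM (median 286) (log2 fold change 1.02 ± 0.19, adjusted p = 0.00103), and the membrane markers *Map1lc3b* and *Gabarapl1* were higher in cTEC, with log2 fold changes of 1.28 and 1.60. The core enzymes *Atg5* and *Atg7* were not called, at 0.0273 and 0.18. *Bnip3*, a mitophagy receptor, had the largest fold change of those called towards mTEC (log2 fold change -0.997 ± 0.15, adjusted p = 0.000276). *Tfeb*, the transcription factor of lysosomal genes, was not called (log2 fold change -2.93 ± 1.04, adjusted p = 0.0546), but was higher in mTEC by DESeq2 and without cTEC replicate 2, mTEC replicate 2 or mTEC replicate 6.

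On the list of mTEC tolerance and costimulation, 10 of 13 genes, all tested, were higher in mTEC, 1 in cTEC and 2 were not called (median -2.64, with 15.8% of all genes called higher in mTEC). *Aire*, the regulator of promiscuous expression (chr10:78030022-78043610, GRCm38), had 0 in 5 cTEC libraries and 3.004 CPM in replicate 5, against 133.96 to 222 CPM (median 200.01) in mTEC (log2 fold change -8.60 ± 1.13, adjusted p = 9.68e-05). *Fezf2*, the second such regulator, had 0.0773 to 9.32 CPM (median 5.49) in cTEC and 150.2 to 700.1 CPM (median 406) in mTEC (log2 fold change -6.37 ± 0.72, adjusted p = 3.06e-05). The costimulatory ligands *Cd80* and *Cd86* overlapped between groups only through mTEC replicate 3, which was at 0, and were higher in mTEC (log2 fold change -5.96 ± 1.57, adjusted p = 0.0129 for *Cd80*). Without that library *Cd80* gave log2 fold change -6.23, adjusted p = 0.00205. The receptors *Cd40* and *Tnfrsf11a*, the latter encoding RANK, were higher in mTEC, *Cd40* at 73.3 to 159 CPM against 242 to 419.9 CPM and *Tnfrsf11a* at 0.0869 to 3.75 CPM against 45.5 to 83.1 CPM. *Relb* and *Nfkb2*, which act downstream of them in the noncanonical NF-kB pathway, were higher in mTEC too, with log2 fold changes of -1.75 and -1.54. *Icosl*, a costimulatory ligand, had 3.24 to 17.9 CPM against 84.4 to 438 CPM. The 2 ligands of PD-1 divided: *Pdcd1lg2* was higher in mTEC (log2 fold change -2.64 ± 0.23, adjusted p = 4.47e-06), and *Cd274*, the one gene of the list higher in cTEC, had 187.04 to 335 CPM (median 257) in cTEC and 75.9 to 126 CPM (median 100.3) in mTEC (log2 fold change 1.23 ± 0.19, adjusted p = 0.000285). *Prdm1*, a transcriptional repressor, was not called (adjusted p = 0.313), nor was *Ltbr*, the lymphotoxin beta receptor (adjusted p = 0.0581), although for *Ltbr* every cTEC library (49.02 to 100.4 CPM) stood above every mTEC library (0 to 36.6 CPM). *Ltbr* was called higher in cTEC without mTEC replicate 3 (log2 fold change 1.73, adjusted p = 0.00155), without mTEC replicate 6 and by DESeq2, which makes 2 genes of the list higher in cTEC in place of 1.

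Of 16 peripheral tissue antigens 15 were found by symbol (*Spt1* was not) and 14 passed the filter on low counts. All 14 were higher in mTEC, and in each every mTEC library stood above every cTEC library (11.6% of all genes), with a median log2 fold change of -6.65. Of these 14, 13 fell under the filter's limit in some cTEC library and so could not pass on cTEC alone, which in part fixed their direction. With the 3 genes at 0 in all cTEC libraries set to their bound, the median was -6.32. *Csn2*, the milk protein beta-casein (chr5:87692624-87699630), had 1.24 to 7.19 CPM (median 5.16) in cTEC and 1095 to 1706 CPM (median 1278) in mTEC (log2 fold change -8.30 ± 0.50, adjusted p = 2.35e-07), with 1644 ± 275 CPM in mTEChi and 203 ± 116 CPM in mTEClo. *Ins2*, insulin, had 0 to 0.0782 CPM (median 0) in cTEC and 0.970 to 4.95 CPM (median 2.28) in mTEC (log2 fold change -6.74 ± 0.93, adjusted p = 0.000136). *Tff3*, a peptide of intestinal goblet cells, had 0 to 0.0914 CPM against 1.92 to 17.1 CPM, with the highest value in mTEC replicate 3. *Gad1*, glutamate decarboxylase of neurons, was at 0 in all cTEC libraries and had 29.5 to 61.8 CPM (median 39.1) in mTEC, at least 1042-fold higher. *Reg3g*, an intestinal antimicrobial lectin, was read in 5 of the 6 cTEC libraries as well, with 0 to 77.2 CPM (median 22.6) in cTEC and 1107 to 3054 CPM (median 1592) in mTEC. *Crp*, C-reactive protein of liver, had the smallest fold change, -4.32 on the log2 scale.

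Lists for mTEC that take on other lineages were also on the medullary side, each against 15.8% of all genes called higher in mTEC. Most of their tested genes, 9 of 10 for tuft and 7 of 10 for keratinocyte genes, likewise could not pass the filter on cTEC alone. In mTEC replicate 3, 2 of the 12 tuft and 3 of the 12 keratinocyte genes were at 0, so counts without it are no support for these lists. For tuft cells, 10 of 12 genes were tested, 8 were higher in mTEC and 2 not called (median -4.66), and without mTEC replicate 3 all 10 were called. *Trpm5*, the cation channel of taste signalling, had 0 to 0.464 CPM (median 0.130) in cTEC and 5.51 to 50.2 CPM (median 17.1) in mTEC (log2 fold change -6.99 ± 1.11, adjusted p = 0.000397). *Dclk1*, a tuft cell kinase, had 1.82 to 31.5 CPM (median 6.91) against 16.1 to 95.6 CPM (median 43.3) (log2 fold change -2.22 ± 0.65, adjusted p = 0.0225), with overlap between the groups and no call when mTEC replicate 1 was left out. *Pou2f3*, the tuft cell master regulator, was not called (0.165 to 9.89 CPM and 0.691 to 34.4 CPM), but was without mTEC replicate 3 (log2 fold change -2.68, adjusted p = 0.0469). For keratinocytes, 10 of 12 were tested and 8 were higher in mTEC (median -5.46), and without mTEC replicate 3 it was 11 of 11 tested. *Krt10*, a keratin of the upper epidermis, had 1.004 to 4.59 CPM (median 3.33) in cTEC and 12.4 to 374 CPM (median 118) in mTEC (log2 fold change -5.77 ± 0.72, adjusted p = 6.57e-05), and *Krt1*, its partner, 0 to 2.06 CPM against 24.9 to 101.4 CPM (log2 fold change -6.55 ± 0.83, adjusted p = 7.29e-05). *Ivl*, involucrin of the cornified envelope, was too low to be tested, with 0 in cTEC and 0 to 31.2 CPM in mTEC. *Calm4*, given above, had the largest fold change of the list.

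Of 9 microfold cell genes, all tested, 7 were higher in mTEC (median -4.99). *Gp2*, the bacterial uptake receptor of intestinal M cells, had 6.76 to 286 CPM (median 79.8) in cTEC and 1501 to 2772 CPM (median 2723) in mTEC (log2 fold change -4.70 ± 0.66, adjusted p = 0.000164). *Spib*, a transcription factor of M cells, had 0 to 4.79 CPM against 48.1 to 123 CPM (log2 fold change -5.63 ± 0.93, adjusted p = 0.000504), and *Sox8*, another, had the largest fold change of the list (log2 fold change -7.60 ± 1.32, adjusted p = 0.000780). *Gp2* had 4899 ± 3494 CPM in mTEClo and 2349 ± 848 CPM in mTEChi. Among 10 neuroendocrine genes 6 were tested and 4 were higher in mTEC (median -3.26), led by *Insm1*, a transcription factor of endocrine cells, at 0 to 1.65 CPM against 7.26 to 32.7 CPM (log2 fold change -5.79 ± 1.34, adjusted p = 0.00573). *Chga*, chromogranin A, was not called (adjusted p = 0.489): cTEC replicate 1 held 40.0 CPM and the other 5 at most 6.48 CPM. *Neurod1* was too low to be tested, with 0 in cTEC and a highest value of 8.66 CPM in mTEC.

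Among 9 genes of ciliated cells 6 were tested and 2 called, both higher in mTEC: *Foxj1*, the regulator of motile cilia, with 0 to 4.75 CPM against 13.1 to 79.3 CPM (log2 fold change -4.45 ± 1.06, adjusted p = 0.00691), and *Rsph1*, a radial spoke protein (log2 fold change -4.65 ± 1.28, adjusted p = 0.0160). *Trp73* was not called (0 to 21.7 CPM and 0 to 19.5 CPM). *Dynlrb2* was too low to be tested. Without mTEC replicate 3, 6 of 8 ciliated genes were called higher in mTEC, and 4 or 5 without any 1 cTEC library or by DESeq2. mTEC replicate 3 was at 0 for 5 of the 9 genes, so the count without it is no support for the list. For muscle, 6 of 9 genes were tested and 5 were higher in mTEC (median -7.80, and -7.42 with the 2 genes at 0 in cTEC set to their bound). *Myog*, the myogenic regulator myogenin, was at 0 in every cTEC library and had 12.8 to 85.5 CPM (median 43.6) in mTEC, at least 1116-fold higher. *Ckm*, muscle creatine kinase, had 0 to 0.0782 CPM against 2.42 to 32.7 CPM (log2 fold change -9.43 ± 1.09, adjusted p = 3.57e-05). *Actc1*, a striated muscle actin, was too low to be tested, with 0 in cTEC and 0 to 30.4 CPM in mTEC.

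**Figure D3:**
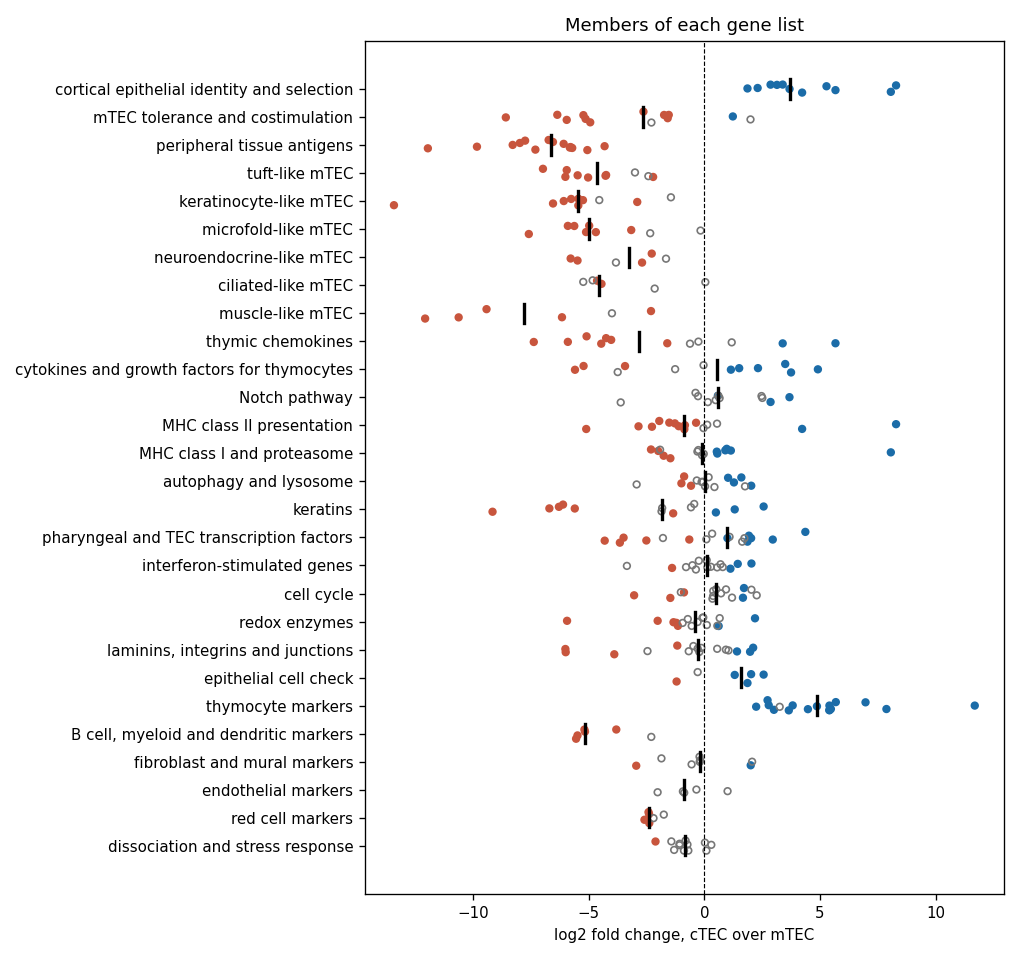
Log2 fold change of cTEC over mTEC for the tested genes of 28 lists. Filled points passed the test (blue higher in cTEC, red higher in mTEC), open points did not, the bar is the list's median and the dashed line the median of all genes tested; the cortical and thymocyte lists lie to the right, and the antigen list and those of cells that mTEC resemble to the left.

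Structural genes fell on either side. Among 14 keratins 13 were tested, 3 were higher in cTEC, 6 in mTEC and 4 were not called (median -1.83), against 9.38% and 15.8% of all genes. Of the simple epithelial keratins, *Krt8* and *Krt18* were higher in cTEC. *Krt8* had 4873 to 6827 CPM (median 5693) in cTEC and 1096 to 2571 CPM (median 2296) in mTEC (log2 fold change 1.31 ± 0.20, adjusted p = 0.000305), and *Krt18* 13635 to 20037 CPM (median 16655) against 1661 to 3035 CPM (median 2828) (log2 fold change 2.56 ± 0.18, adjusted p = 6.98e-07). *Krt7* was called higher in cTEC too, but not without cTEC replicate 1 (log2 fold change 0.43, adjusted p = 0.0734) or some other single libraries. *Krt19* was not called, but was higher in mTEC by DESeq2 (log2 fold change -1.92, adjusted p = 0.0131). It was so by edgeR without cTEC replicate 6 (log2 fold change -2.94, adjusted p = 0.00124). *Krt5* and *Krt14*, the basal keratins often used to mark the medulla, were not called (log2 fold change -0.58 ± 0.27, adjusted p = 0.145 for *Krt5* and log2 fold change -0.44 ± 0.27, adjusted p = 0.276 for *Krt14*). Their level in mTEClo was 1332 ± 292 and 1159.7 ± 403 CPM and in mTEChi 112.8 ± 21.4 and 249 ± 23.7 CPM. *Krt4*, of stratified mucosa, led towards mTEC, with 0 to 1.40 CPM against 45.98 to 223 CPM (log2 fold change -9.17 ± 1.11, adjusted p = 4.91e-05). For laminins, integrins and junctions, 3 of 16 genes, all tested, were higher in cTEC, 4 in mTEC and 9 were not called (median -0.26), or 18.8% and 25%, against 9.38% and 15.8% of all genes. *Lamb3*, a chain of laminin-332, had 139.2 to 272 CPM (median 242) in cTEC and 0.346 to 104 CPM (median 43.4) in mTEC (log2 fold change 2.11 ± 0.67, adjusted p = 0.0327). The groups did not overlap, but the call was lost when any of 8 single libraries was left out (cTEC replicates 1, 2, 3 and 5 and mTEC replicates 2, 4, 5 and 6), as without cTEC replicate 1 (log2 fold change 2.09, adjusted p = 0.0515). *Cldn4*, a tight junction claudin of mTEC, led towards mTEC, with 0 to 7.58 CPM (median 4.28) against 137.3 to 359.9 CPM (median 243) (log2 fold change -6.02 ± 0.74, adjusted p = 5.98e-05). *Itga6*, a laminin receptor chain, was not called (adjusted p = 0.121), but was without mTEC replicate 3 (log2 fold change -0.84, adjusted p = 0.0166).

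Among 19 pharyngeal and epithelial transcription factors 17 were tested, 6 were higher in cTEC, 5 in mTEC and 6 were not called (median 0.996), against 9.38% and 15.8% of all genes. *Trp63*, which sustains epithelial progenitors, had 497 to 850.2 CPM (median 543) in cTEC and 80.9 to 239 CPM (median 137.2) in mTEC (log2 fold change 2.02 ± 0.27, adjusted p = 9.81e-05). *Pax9* had 52.9 to 93.6 CPM against 22.6 to 49.3 CPM (log2 fold change 0.996 ± 0.25, adjusted p = 0.00866), and *Hoxa3*, a patterning gene of the third pharyngeal pouch, led by fold at low levels, with 11.9 to 23.9 CPM against 0 to 2.82 CPM (log2 fold change 4.37 ± 1.24, adjusted p = 0.0190). *Ehf*, an epithelial ETS factor, led towards mTEC, with 3.40 to 15.2 CPM (median 7.18) against 128 to 196 CPM (median 163.4) (log2 fold change -4.32 ± 0.41, adjusted p = 8.35e-06). *Tbx1*, whose heterozygous loss with that of *Crkl* the study modelled in other samples, was not called (0 to 2.86 CPM and 0 to 14.4 CPM).

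Of 15 interferon-stimulated genes, all tested, 3 were higher in cTEC, 1 in mTEC and 11 were not called (median 0.13), near the 25.2% called among all genes. Without cTEC replicate 1, 3 were higher in mTEC. *Ifi44*, an interferon-induced gene, led towards cTEC, with 100.9 to 152 CPM (median 129) against 14.4 to 64.6 CPM (median 21.6) (log2 fold change 2.03 ± 0.35, adjusted p = 0.000722), and *Usp18*, a negative regulator of the pathway, towards mTEC (log2 fold change -1.40 ± 0.19, adjusted p = 0.000141). *Isg15* and *Irf7* were not called (log2 fold change 0.10 ± 0.29, adjusted p = 0.856 and log2 fold change -0.52 ± 0.23, adjusted p = 0.123), though *Irf7* was higher in mTEC without cTEC replicate 1 (log2 fold change -0.68, adjusted p = 0.0400). Of 16 redox enzymes, all tested, 2 were higher in cTEC, 5 in mTEC and 9 were not called (median -0.42), or 12.5% and 31.2%, against 9.38% and 15.8% of all genes. *Nqo1*, a quinone reductase, led towards cTEC, with 342 to 426 CPM (median 384) against 48.3 to 116 CPM (median 74.7) (log2 fold change 2.19 ± 0.20, adjusted p = 4.76e-06), and *Gpx2*, a gut glutathione peroxidase, towards mTEC (log2 fold change -5.95 ± 1.43, adjusted p = 0.00725). *Gpx3*, the secreted glutathione peroxidase, had 139.3 to 1393 CPM against 1255 to 2607 CPM (log2 fold change -1.34 ± 0.43, adjusted p = 0.0347), and its call was lost when any of 6 single libraries was left out (cTEC replicates 2 and 5 and mTEC replicates 1, 2, 4 and 5). *Cat* and *Sod2*, catalase and mitochondrial superoxide dismutase, were not called, with log2 fold changes of 0.10 and -0.0506.

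Of 16 cell cycle genes 15 were tested, 2 were higher in cTEC, 3 in mTEC and 10 were not called (median 0.51), or 13.3% and 20%, near the 9.38% and 15.8% of all genes. *Top2a*, a topoisomerase of dividing cells, had 69.9 to 226 CPM (median 193) in cTEC and 31.6 to 101.3 CPM (median 37.6) in mTEC (log2 fold change 1.71 ± 0.34, adjusted p = 0.00203), and the lowest cTEC value was that of replicate 1. The thymocyte markers were lowest in the same library, and their part in *Top2a* was not tested. *Birc5*, of the chromosomal passenger complex, was the other gene higher in cTEC (27.1 to 60.8 CPM against 5.86 to 19.2 CPM), and again cTEC replicate 1 was lowest. *Mki67* and *Ccnb1* were not called (adjusted p = 0.158 and 0.320). *Cdkn1a*, an inhibitor of the cycle, had 18.3 to 46.8 CPM (median 35.8) in cTEC and 186 to 424 CPM (median 254) in mTEC (log2 fold change -3.04 ± 0.25, adjusted p = 2.62e-06). Without mTEC replicate 3, 6 of the 15 were called higher in cTEC and 3 in mTEC.

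Further lists held markers of other cells, which mTEC, as they transcribe genes of other lineages, may also express, and bulk RNA does not tell these apart. The summed B cell, myeloid and dendritic markers stood at 528 to 716 CPM in mTEChi and 42.8 to 298 CPM in mTEClo. Of 12 B cell, myeloid and dendritic markers 6 were tested and 5 were higher in mTEC (15.8% of all genes were), or 3 of 6 when mTEC replicate 4 or mTEC replicate 5 was left out, with a summed level of the 12 of 402 to 620 CPM in mTEC and 7.39 to 25.7 CPM in cTEC. Of the 6 tested, 5 fell under the filter's limit in some cTEC library and so could not pass on cTEC alone. *Cd79a* lost its call without any 1 of cTEC replicates 1 to 5 or mTEC replicates 1, 2, 4, 5 and 6. *Cd68* lost it without any 1 of cTEC replicates 1, 2, 3 and 6 or mTEC replicates 4, 5 and 6. *Lyz2*, lysozyme of myeloid cells, led, with 2.83 to 18.8 CPM (median 3.85) against 207 to 444 CPM (median 319.6) (log2 fold change -5.55 ± 0.54, adjusted p = 9.81e-06). The defining markers *Itgax* and *Ms4a1* were at 0 in every cTEC library and at most 6.71 and 18.5 CPM in mTEC, and *Csf1r* was not called (adjusted p = 0.148) unless mTEC replicate 6 was left out. Red cell markers summed to 575 to 4662 CPM in mTEC and 33.5 to 1411 CPM in cTEC, and 4 of 6 were higher in mTEC, all globins, which have near-identical copies. *Hba-a1* had 10.5 to 424 CPM (median 64.9) against 161.3 to 1377 CPM (median 474) (log2 fold change -2.40 ± 0.77, adjusted p = 0.0348), *Hbb-bs* 10.9 to 553 CPM against 227 to 2023 CPM and *Hbb-bt* 0.823 to 65.1 CPM against 26.1 to 306 CPM. mTEC replicate 3 was highest in all 3, and by edgeR none of the 6 passed when it, or cTEC replicate 1, was left out. *Hba-a1* also lost its call without cTEC replicates 2 or 4 or mTEC replicates 5 or 6, and *Hbb-bs* and *Hbb-bt* without these or cTEC replicate 5. DESeq2, on all libraries, called 5 of the 6. *Alas2*, the erythroid enzyme of haem synthesis, had an adjusted p of 0.0536 and was higher in mTEC without cTEC replicate 6 (log2 fold change -3.12, adjusted p = 0.00630) or mTEC replicate 1. The study's panel also holds an antibody against red cells, and its sorts of nonepithelial cells excluded cells that bound it. Whether the cTEC and mTEC sorts did so was not found in the sources used here. What part other cells have in these marker levels was not tested.

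Fibroblast and mural markers summed to 599 to 3134 CPM in cTEC and 1733 to 3628 CPM in mTEC, and of 10 genes 8 were tested, with 1 higher on each side (12.5%, near the 9.38% and 15.8% of all genes) and 2 higher in mTEC without cTEC replicate 6. *Rgs5*, a pericyte marker, had 133.7 to 659 CPM (median 216) in cTEC and 1371 to 3199.7 CPM (median 2063) in mTEC (log2 fold change -2.95 ± 0.39, adjusted p = 0.000102), while *Dcn*, a proteoglycan of fibroblasts, had 317 to 1057 CPM (median 595) against 98.4 to 237 CPM (median 139.1) (log2 fold change 2.002 ± 0.31, adjusted p = 0.000332). *Pdgfra* was too low to be tested (at most 5.21 CPM in cTEC and 8.39 CPM in mTEC) and *Pdgfrb* was not called. *Col1a1* was not called with all libraries, as cTEC replicate 6 held 724 CPM and the other 5 held 14.7 to 111 CPM. Without that library it was higher in mTEC (log2 fold change -1.83, adjusted p = 0.0219). Of 8 endothelial markers 5 were tested and none passed by edgeR, *Pecam1* and *Cdh5* included (adjusted p = 0.294 and 0.913). The count was 0 at an unadjusted p under 0.05 and 0 by DESeq2 as well. Without cTEC replicate 6, 1 endothelial marker was higher in mTEC. *Kdr* was too low to be tested, with 22.1 CPM in cTEC replicate 6. Among 12 genes of dissociation and stress, all tested, 1 passed (8.33%, against 25.2% of all genes), *Dusp1*, higher in mTEC (log2 fold change -2.12 ± 0.62, adjusted p = 0.0228), though not when mTEC replicate 5 was left out. The count was 3 without mTEC replicate 1, 2 without cTEC replicate 5, 3 by DESeq2 and 3 with a replicate block, which pairs same-numbered libraries, all higher in mTEC. *Fos*, *Jun* and *Hspa1a* were not called (log2 fold change -1.07 ± 0.72, adjusted p = 0.318 for *Fos*, log2 fold change -0.82 ± 0.51, adjusted p = 0.284 for *Jun* and log2 fold change -0.89 ± 0.56, adjusted p = 0.293 for *Hspa1a*). With the block *Fos* was called higher in mTEC (log2 fold change -1.19, adjusted p = 0.00493). cTEC replicate 1 and mTEC replicate 1 had the lowest summed level of the list in their groups, 1345 and 1746 CPM, against 2605 to 4356 CPM in the other cTEC and 2739 to 5806 CPM in the other mTEC libraries, and mTEChi and mTEClo replicates 1 were the lowest of theirs as well, at 1695 and 1881 CPM.

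The breadth of expression was then compared at equal depth, since mTEC are known for transcribing many genes. Each library was thinned to 5785352 gene counts, the total of mTEC replicate 3. cTEC had 14619 to 15632 genes with at least 1 count, or 15250 ± 483 (mean ± SD, n = 6), and mTEC 12758 to 18221, or 16436 ± 2014 (n = 6). The difference of -1186 genes did not pass (exact permutation test, two-sided, p = 0.201). That it did not pass rested on mTEC replicate 3, which had 12758 genes, below every cTEC library, whereas the other 5 mTEC libraries had 15915 to 18221, above every cTEC library. Without it the difference was -1922 genes (p = 0.00433 by the same exact permutation test, the smallest that 6 against 5 libraries allow). As the library left out was the lowest in this same count, that p-value is no support for a difference. Leaving out any other library gave p from 0.221 to 0.377 by the same test. Within DFCK the difference was -364 genes (exact p = 0.8) and within TXCK -2009 genes (exact p = 0.1, the smallest that 3 against 3 libraries allow). mTEChi had 19136 to 20204 genes and mTEClo 13752 to 14940, so every mTEChi library stood above every cTEC library, and the mTEClo range began below that of cTEC and overlapped it. Over all 6 libraries together, cTEC showed 19552 genes and mTEC 22891, while 11861 genes were present in every cTEC library and 9995 in every mTEC library.

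**Figure D4:**
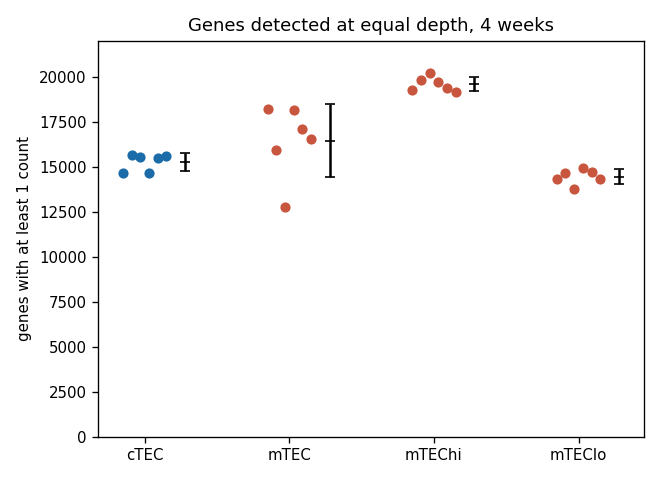
Genes with at least 1 count in each 4-week library after thinning to 5785352 gene counts, with the mean and SD of each population beside the points. The mTEChi libraries stand above all others, and the lowest mTEC library, replicate 3, has 12758 genes.

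The sorted mTEC subsets placed the differences further. Of the 2019 genes over 2-fold higher in mTEC than in cTEC, 1055 (52.3%) had more than 2 times the mean level in mTEChi that they had in mTEClo, and 5.40% the reverse, against 16.9% and 17.0% of all genes tested. Of the 936 genes over 2-fold higher in cTEC, 11.4% were over 2 times higher in mTEChi and 406 (43.4%) in mTEClo. These are counts of means from 6 libraries each, with no test.

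The difference between cTEC and mTEC at 4 weeks was set against that at birth in 1 model of 24 libraries. Of the 936 genes over 2-fold higher in cTEC at 4 weeks, 555 (59.3%) were over 2-fold higher in cTEC at birth too and 56 (5.98%) over 2-fold higher in mTEC. Of the 2019 genes over 2-fold higher in mTEC, 1776 (88.0%) were over 2-fold higher in mTEC at birth and 6 (0.297%) over 2-fold higher in cTEC, against 27.6% and 11.9% of all genes tested. At birth the fitted fold change alone was counted, without a call, whereas the genes had been called at 4 weeks. Of 17284 genes tested, 954 (5.52%) had a difference that changed with age, 748 (4.33%) towards cTEC and 206 (1.19%) towards mTEC. With DESeq2's size factors the counts were 621 and 298, and without mTEC replicate 3 at 4 weeks they were 802 and 342. The median change over all genes was 0.21 on the log2 scale, so values are to be read against that shift. Where a group stood at 0 the fitted change depends on the prior count of the fit. The summed genes of dissociation and stress moved with age as well, at 8808 to 16150 CPM in cTEC at birth against 1345 to 4356 CPM at 4 weeks, and in mTEC at 4904 to 7565 against 1746 to 5806 CPM. Red cell markers summed to 0 to 1.81 CPM in cTEC and 8.51 to 48.3 CPM in mTEC at birth, below every library of the same population at 4 weeks. Endothelial markers summed to 0 to 5.49 CPM in cTEC at birth against 19.9 to 160.9 CPM at 4 weeks. The mitochondrial share of counts was 0.240 to 0.360% in cTEC at birth and 0.382 to 0.924% at 4 weeks, and in mTEC 0.288 to 0.378% and 0.608 to 1.24%, without overlap between the ages. The part of any of these in the change with age was not tested. On the cortical list, all 11 tested genes had a log2 fold change above 0 at birth as well (38.1% of all genes had), and in 6 the difference changed towards cTEC (*Psmb11*, *Prss16*, *Ctsl*, *Cd83*, *Tbata* and *Ccl25*). For *Prss16* the log2 fold change was 4.35 at birth and 8.30 at 4 weeks (change 3.95 ± 0.44, adjusted p = 4.76e-06). The cTEC level was 12505 ± 3455 CPM at birth and 15535 ± 3601 CPM at 4 weeks (mean ± SD, n = 6 each), and the mTEC level was 550.5 ± 276 CPM at birth and 45.99 ± 14.8 CPM at 4 weeks. *Psmb11* was 346 ± 94.03 CPM in cTEC at birth and 1288 ± 298 CPM at 4 weeks (change 3.71 ± 0.88, adjusted p = 0.0121).

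On the antigen list, all 15 genes tested in this model were below 0 at birth (61.9% of all genes were) and 1 changed, *Resp18*. Of the 14 tested at 4 weeks, 13 fell under the filter's limit in some cTEC library of that age. Such genes may enter this model only through mTEC, so their direction at birth may have been fixed in part. On the tolerance list 1 of 13 changed, *Fezf2*, which was 0 to 0.0807 CPM in cTEC at birth and 0.0773 to 9.32 CPM at 4 weeks (change 7.75 ± 1.08, adjusted p = 8.25e-05). All 15 cell cycle genes tested were below 0 at birth too, and 7 changed towards cTEC and 1, *Cdkn1a*, towards mTEC (4.33% and 1.19% of all genes). For *Top2a*, cTEC had 46.6 ± 20.5 CPM at birth and 173.4 ± 56.8 CPM at 4 weeks, and mTEC 96.6 ± 34.8 and 49.7 ± 27.1 CPM (change 2.94 ± 0.50, adjusted p = 0.000656). Thymocyte markers changed towards cTEC in 15 of 17. At birth 15 of the 17 were below 0 (61.9% of all genes were), with a median log2 fold change of -0.91. Their sum at birth was 51.5 to 121 CPM in cTEC and 114 to 198 CPM in mTEC. Of 10 fibroblast and mural markers 4 changed towards cTEC too, and the sum of the 10 was 100.8 to 320.2 CPM in cTEC at birth. The part of these markers' cells in the cell cycle genes was not tested. Among chemokines, 4 of 13 changed towards cTEC and 1 towards mTEC. For *Ccl21a* the log2 fold change was -2.82 at birth and -0.62 at 4 weeks, and its mTEC level 1377 ± 604 and 4188 ± 1815 CPM. *Psmb8* stood at 16.5 ± 5.497 CPM in cTEC and 179.7 ± 34.05 CPM in mTEC at birth, and at 260.4 ± 32.5 and 681 ± 354 CPM at 4 weeks (change 2.15 ± 0.34, adjusted p = 0.000261).

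The 5 genes with the largest change towards cTEC were *St8sia4*, *Trbv12-1*, *Upk3b*, *Car3* and *Rhoh*, the second and the last of them genes of T cells or blood cells. *Upk3b*, a uroplakin of mesothelium and urothelium, was at 0 in all cTEC libraries at birth and had 0 in cTEC replicates 1 and 2 at 4 weeks, 207 to 399 CPM in replicates 3 to 5 and 1895 CPM in replicate 6. mTEC had 13.7 to 386 CPM at 4 weeks, with replicate 6 highest there as well. *Car3*, a carbonic anhydrase of muscle and fat, was as uneven, from 0 to 752 CPM in cTEC. *St8sia4*, a polysialyltransferase, had 0 to 10.3 CPM in cTEC and 0 in mTEC at 4 weeks, and 0.178 ± 0.435 and 13.9 ± 8.54 CPM at birth. Towards mTEC the 5 genes were *Tmc7*, *Kcne4*, *Ppp2r2b*, *Eda2r* and *Sdcbp2*. *Kcne4*, a potassium channel subunit, had 46.4 ± 15.2 CPM in cTEC and 0 in mTEC at birth, and 0 to 12.2 CPM and 0 to 12.5 CPM at 4 weeks. The genes *Tmc7*, *Ppp2r2b* and *Eda2r* had 10.7 ± 6.57, 25.3 ± 9.62 and 10.2 ± 5.55 CPM in cTEC at birth and 0 in every cTEC library at 4 weeks. *Sdcbp2*, a syntenin, was at 0 in cTEC at 4 weeks and had 22.2 to 58.01 CPM in mTEC, at least 1031-fold higher.

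**Figure D5:**
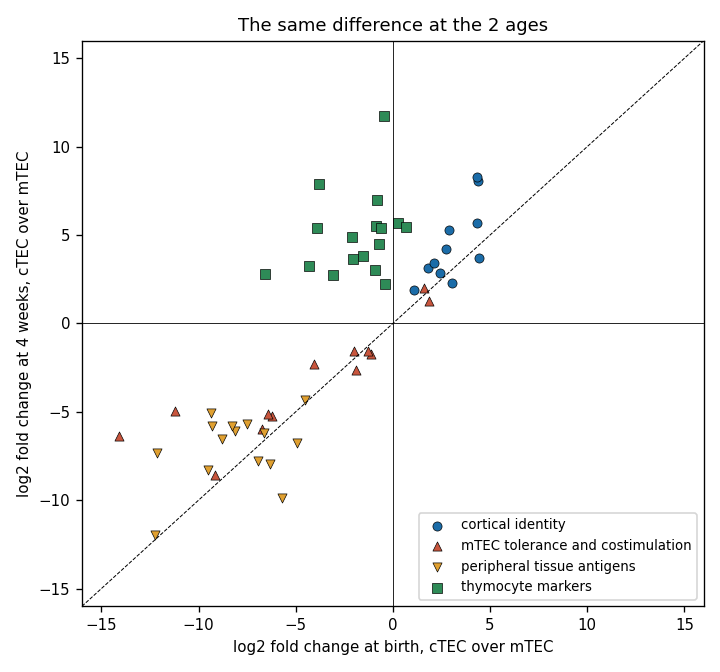
Log2 fold change of cTEC over mTEC at birth against that at 4 weeks for the genes of 4 lists, with equality as the dashed line. Cortical genes lie to the upper right and most tolerance and antigen genes to the lower left, whereas thymocyte markers lie high at 4 weeks only.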

How the data were processed

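RNA of sorted populations was made into libraries by an ultra-low input protocol that the labels call equivalent to Smarter-seq. Its reads carry no molecular identifiers, so intervals and floors would cover counting error only. The authors deposited 1 table of raw counts of reads per Ensembl gene for all bulk libraries, without normalization. The submitters' processing notes name STAR 2.5.3a, HTSeq and mm10 for the series, and strandedness is not given in the sources used here. The table holds no comparison columns of the authors, and 0 columns were without a sample. Of 39179 Ensembl genes, 37607 had a symbol in RefSeq or GENCODE tables, and the others took 0.740% of counts. The HTSeq rows of reads in no gene (10.2 to 12.2% of reads in cTEC, 12.9 to 14.5% in mTEC) and the other rows without an Ensembl gene, 98 in all, were left out of library sizes and tests.

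Counts were tested in R 4.3.3 with edgeR 4.0.16 (filterByExpr, TMM, quasi-likelihood F test, Benjamini-Hochberg adjustment) over the 12 libraries by population, and, for the change with age, over 24 libraries with a term for population by age. Standard errors were taken from the F statistic. DESeq2 1.42.0, its size factors, other filters, the title prefix as a term, each prefix alone, a replicate block and leaving out each library were alternatives. Genes detected were compared with an exact two-sided permutation test (scipy 1.17.1, Python 3.11.15) after thinning. Methods were tested on simulated data. Replicate numbers follow the order of the labels. Whether they pair libraries between populations is not stated, and the tests by population alone do not pair them. Named with values were the first 3 genes of each of 28 lists (apart from 2 genes that are not reported here), the called gene of largest fold change per list and direction, the 10 largest per direction over all genes (mean of at least 10 CPM, no overlap) and the 5 largest changes with age. *Enpep* and other list genes were named where a check or count was described. The members and lists were chosen with earlier results of these data known. The single-cell samples, the other bulk populations and the deposited annotation of cells were not used here.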

Additional observations from a re-analysis of the deposited data

Results flagged for a closer look

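Among 278 groups of 6 libraries checked, 32 held a library whose gap to the rest exceeded Dixon's 95% limit. By chance that limit is passed in about 1 in 20 groups only where values are normally distributed. CPM of low genes need not be, so the 32 are not read as an excess. mTEC replicate 3, the library with the fewest counts, was the one in 11 of the 32. It was highest for *Actc1* at 30.4 CPM, *Ccl20* at 366 CPM, *H2-Aa* at 19492 CPM, *Hbb-bt* at 306 CPM, *Psmb5* at 183 CPM, *Psmb8* at 1380.2 CPM, *Tff3* at 17.1 CPM and *Tmc7* at 17.6 CPM. It was lowest for *Epcam* at 368 CPM, *Krt18* at 1661 CPM and *Prss16* at 17.6 CPM. mTEC replicate 1 was highest for *Bmp4* at 2.38 CPM, *Krt5* at 637 CPM, *Lamp2* at 762 CPM and *Top2a* at 101.3 CPM. mTEC replicate 6 was highest for *Kdr* at 2.47 CPM, *Pdgfra* at 8.39 CPM and *Upk3b* at 386 CPM, replicate 4 for *Cd3e* at 5.17 CPM and *Neurod1* at 8.66 CPM, and replicate 5 for *Ivl* at 31.2 CPM.

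In cTEC, replicate 6 was highest for *Col1a1* at 724 CPM, *Kdr* at 22.1 CPM, *Upk3b* at 1895 CPM, *Insm1* at 1.65 CPM, *Krt4* at 1.40 CPM and the summed endothelial markers at 160.9 CPM. cTEC replicate 5 was highest for *Aire* at 3.004 CPM and *Krt1* at 2.06 CPM and lowest for *Kcnk4* at 7.19 CPM, replicate 3 was highest for *Gpx2* at 2.10 CPM, and replicate 1 for *Chga* at 40.0 CPM.

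In the model over both ages, 45 named genes had a difference between cTEC and mTEC that changed from birth to 4 weeks (interaction term, edgeR), a count not set against all genes, as 10 of them were named for their large change. On the log2 scale the changes towards cTEC were, among genes of thymocytes and other blood cells, 7.01 for *Ptprc*, 7.81 for *Cd3e*, 5.43 for *Rag1*, 12.15 for *Rag2*, 13.36 for *Rhoh*, 11.38 for *Was*, 14.68 for *Trbv12-1*, 10.51 for *Trbv13-1*, 5.08 for *Lyz2* and 5.17 for *Alas2*. Among epithelial genes of cortex and medulla they were 3.95 for *Prss16*, 3.71 for *Psmb11*, 1.28 for *Ccl25*, 2.20 for *Ccl21a*, 2.03 for *Ccl19*, 7.75 for *Fezf2*, 8.14 for *Il23a*, 1.97 for *Krt14*, 5.12 for *Cldn4*, 2.15 for *Psmb8* and 1.92 for *Psme1*. Among mesenchymal and endothelial markers they were 11.39 for *Col1a1*, 4.02 for *Dcn*, 2.43 for *Rgs5* and 5.65 for *Pecam1*. The others were 8.58 for *Adamts10*, 8.70 for *Cthrc1*, 12.34 for *Dgkeos*, 10.21 for *Ednrb*, 6.37 for *Kcnk4*, 13.75 for *Car3*, 13.95 for *Upk3b*, 15.51 for *St8sia4*, 2.94 for *Gpx3* and 2.94 for *Top2a*. Towards mTEC they were -1.45 for *Cdkn1a*, -2.45 for *Dclk1*, -4.08 for *Krt10*, -1.47 for *Nqo1*, -1.74 for *Isg15*, -9.86 for *Eda2r*, -11.83 for *Kcne4*, -10.01 for *Ppp2r2b*, -8.38 for *Sdcbp2* and -11.98 for *Tmc7*. The largest of these rest on a group at or near 0 counts and depend on the prior count of the fit.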

How the results depend on the processing

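The split of genes between cTEC and mTEC kept its direction, with more genes higher in mTEC, under every alternative run. Counts for cTEC and mTEC were 1231 and 2335 with DESeq2's size factors, 1643 and 2875 with DESeq2, 1397 and 3522 without a filter on low counts, which tests more genes, 461 and 1005 within DFCK and 977 and 2333 within TXCK, each of the last with 3 libraries a group. Leaving out 1 library gave 1096 to 1784 and 2022 to 2775, both highest without mTEC replicate 3. Same-numbered libraries correlated at -0.0534 to 0.0358 in their deviations and 3 of 6 correlated best with their own number. These values do not settle whether the numbers pair the samples, and the tests above did not pair them. The replicate block gave 1133 and 1928. The S numbers of the titles step by 12 from each cTEC library to the mTEC library of the same number, but no label says that they mark a shared mouse or day. With the block *Cd80* (adjusted p = 0.0778), *Cd86* (0.105), *Lamb3* (0.0840), *Hbb-bt* (0.0517), *Psmb10* (0.0809), *Hes6* (0.0768), *Crp* (0.0571) and other list genes were not called. Called with it were *Krt5* (0.0470), *Fos* (0.00493), *Alas2* (0.0121) and others. Higher in mTEC were then 3 redox enzymes in place of 5, 8 class II genes in place of 10 and 8 tolerance genes in place of 10. Thymocyte markers higher in cTEC were 14 in place of 16. Counts rose in other lists, such as keratins higher in mTEC, 8 in place of 6. For the change with age, leaving out 1 library gave 3.32 to 4.50% of genes towards cTEC and 0.885 to 1.92% towards mTEC, the highest without mTEC replicate 3 at 4 weeks. The difference in genes detected ranged from -829 to -1922 over the same fits and passed the threshold only without mTEC replicate 3, the lowest library in that count. It was -1152 genes for at least 5 counts and -1080 genes without thinning (exact permutation p = 0.156 and 0.247). Of the 3564 called genes, 0 turned their direction in any alternative that tested them. Among named genes not called, log2 fold changes crossed 0 as follows, the cause not tested. With the prefix as a term they were -1.11 for *Car3*, 1.48 for *Cdh5* and -0.018 for *Kcne4*. With the replicate block they were -2.62 for *Car3*, 1.47 for *Cdh5*, 0.054 for *Ciita* and 0.035 for *Psmb5*. Within DFCK they were -4.12 for *Car3*, 0.083 for *Ciita*, -0.11 for *Isg15* and -0.039 for *Trp73*, and within TXCK -0.080 for *Cat*, 0.36 for *Col1a1* and 0.39 for *Psmb5*. *Trp73* was -0.042 with DESeq2's size factors and -0.043 with DESeq2. Over the fits without 1 library, *Cat* ranged from -0.017 to 0.18, *Cdh5* from -0.81 to 0.76, *Ciita* from -0.20 to 0.13, *Col1a1* from -1.83 to 0.046, *Isg15* from -0.089 to 0.22, *Kcne4* from -0.56 to 1.02, *Psmb5* from -0.20 to 0.25, *Sod2* from -0.10 to 0.015 and *Trp73* from -0.47 to 0.50. Of the genes named by the rule, 22 lost their call within DFCK, 10 within TXCK and 0 to 6 without 1 library. Depth limits what low genes can show, as for *Ivl*, *Actc1* and *Neurod1*, which were too low to be tested.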

Other observations

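Gene families outside the lists, counted by the start of their symbols, were also read, a choice made after results had been seen, and 15.8% of all genes tested were higher in mTEC and 9.38% in cTEC. Of 12 kallikrein-related peptidases tested (of 27 in the table), serine proteases of skin and glands, 11 were higher in mTEC and none in cTEC, with a median log2 fold change of -6.16. All 12 fell under the filter's limit in some cTEC library, so that none could pass on cTEC alone and their direction was in part fixed. Of 16 serpin B genes tested (of 28), intracellular protease inhibitors, 10 were higher in mTEC and none in cTEC (median -2.73). Of the 30 cytochromes P450 tested, out of 116, 14 were higher in mTEC and 1 in cTEC (median -3.25), and 15 of the 30 fell under that limit in some cTEC library. Of 21 genes tested (of 38) whose symbols start as those of apolipoproteins do, 9 were higher in mTEC and 1 in cTEC (median -1.57). Genes of other families can share that start, so the count does not describe apolipoproteins alone. Of 5 UDP glucuronosyltransferases tested (of 21) 3 were higher in mTEC. Among 3 tested genes (of 36) of the cornified envelope and small proline-rich families, 2 were higher in mTEC.

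Receptor families were read in the same way. Of 1146 olfactory receptors 2 passed the filter on low counts and neither was called by edgeR. Of 22 T cell receptor beta variable segments 17 were tested and 15 were higher in cTEC (median 6.27), as the thymocyte markers were, and no alpha variable segment passed the filter. Of 214 immunoglobulin variable segments 1 passed and was higher in mTEC.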
